A study of Mus musculus with 4 samples.

Results

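Transcript levels of the Rab GTPase genes were compared between splenic monocyte subsets of mice with and without the microRNA miR-146a. The family was taken as every gene whose symbol is Rab, a number and at most 1 letter, so that interacting proteins and Rab-like genes were left out. The rule gave 59 genes out of 18194 on the array, and these were all 59 RefSeq mouse genes named in this way. A probe set is a group of short probes that read 1 transcript, and for each gene the probe set of highest mean signal stood for it. Each group was a single Affymetrix GeneChip mouse array of RNA pooled from several mice. The groups were Ly6Clow and Ly6Chigh monocytes of miR-146a-/- mice (KO, strain label B6(FVB)-Mir146tm1.1Bal/J) and Ly6Clow and Ly6Chigh monocytes of WT mice (strain label C57BL/6, called control littermates in the source label). The study asked which genes miR-146a targets in each subset.

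All cells came from spleen, were enriched with CD11b microbeads after red cell lysis and were then sorted on Ly6C to a stated purity above 97%. The sorted pools were defined by CD11b and Ly6C alone as far as the labels say, and the labels give neither age nor sex. The treatment label names an RBC and an ACT lysis buffer, each used for 4 min. On its most direct reading the 1st was used for WT spleens and the 2nd for KO spleens, in which case every KO to WT ratio holds both, and the effects of lysis buffer and genotype cannot be told apart.

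Rab proteins are small GTPases of the Ras superfamily that mark the membranes of the secretory and endocytic pathways. A guanine nucleotide exchange factor (GEF) loads a Rab with GTP on its membrane, the GTP form recruits effectors that move, tether or fuse vesicles, and a GTPase-activating protein (GAP) returns it to the GDP form, which a GDP dissociation inhibitor takes off the membrane. In monocytes and macrophages the family is known for its part in phagosome maturation, the traffic of Toll-like receptors and the release of stored granules. The Ly6Clow subset is known for patrolling the vessel wall, and the Ly6Chigh subset, also called classical, for entering inflamed tissue.

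Of the 59 Rab genes, 38 were called Present, the authors' detection call, on all 4 arrays. The count per array was 39 in KO Ly6Clow, 44 in KO Ly6Chigh, 43 in WT Ly6Clow and 44 in WT Ly6Chigh. No array gave a Present call for 12 members, namely Rab3b, Rab3c, Rab9b, Rab15, Rab17, Rab23, Rab25, Rab26, Rab30, Rab37, Rab39b and Rab40b. On 3 arrays Rab27b, Rab33a and Rab44 were Present, and on 1 array Rab4a, Rab13 and Rab34. Rab6b was Present on the Ly6Clow array of both genotypes and on neither Ly6Chigh array. Rab38 and Rab42 were Present on both Ly6Chigh arrays and on neither Ly6Clow array. However, Rab42 read only 13.3 in KO Ly6Chigh and 8.8 in WT Ly6Chigh, under the 95th percentile of Absent signals there (28.8 and 24.6). Its signal in WT Ly6Clow was higher than in WT Ly6Chigh, at 9.8, so its calls do not show a subset difference. The arrays were alike in their overall quality values, with 46.8% to 48.6% of all probe sets Present, the same trimmed mean signal of 150 and actin 3'/5' ratios of 1.203 to 1.418.

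With 1 array in a group no spread between replicates could be measured, so a ratio of 2 arrays has no error and no p-value, and 1 array of pooled RNA limits the precision of every value below. A gene was counted as higher or lower where its signals differed by a log2 ratio of at least 1, the brighter array called it Present and the brighter signal was at least 100. A gene counted as measured in a comparison where at least 1 of its 2 arrays called it Present.

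Ly6Clow monocytes had less transcript of Rab3d, Rab7b, Rab24 and Rab36 than Ly6Chigh monocytes, and more of Rab19, in both genotypes. These 5 genes were the calls in KO, 5 of 45 measured Rab genes (11.1%, against 8.78% of all 10410 measured genes), and the same 5 were the calls in WT, 5 of 46 (10.9%, against 8.65% of 10535 genes). The family thus lay near the share of all genes in each genotype. By direction, 1 of 45 Rab genes was higher in KO (3.69% of all genes) and 4 were lower (5.09% of all genes). In WT 1 of 46 was higher (3.65% of all genes) and 4 were lower (4.99% of all genes). A bulk level cannot tell fewer cells of a type from less RNA per cell.

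Rab3d encodes a GTPase of secretory granules that acts in regulated exocytosis. Its signal was 137.7 in KO Ly6Clow and 377.0 in KO Ly6Chigh monocytes, and 114.6 in WT Ly6Clow and 475.5 in WT Ly6Chigh monocytes. Both Ly6Clow arrays lay below both Ly6Chigh arrays, at log2 ratios of -1.45 in KO and -2.05 in WT. All 3 other probe sets of the gene had ratios below 0 in both genotypes (-2.07 to -0.66 in KO and -3.08 to -1.27 in WT). Only 1 of them was Present on all 4 arrays, at -1.46 in KO and -1.48 in WT, and the rest were Absent on both Ly6Clow arrays. Rab7b is a late endosomal and trans-Golgi GTPase, known in mouse macrophages for sending Toll-like receptors to degradation. It read 52.8 in KO Ly6Clow and 158.8 in KO Ly6Chigh, and 45.7 in WT Ly6Clow and 199.9 in WT Ly6Chigh (log2 -1.59 and -2.13). The Ly6Clow signals were again the lower ones in each genotype. A 2nd probe set, Absent on both Ly6Clow arrays, gave -1.31 in KO and -1.75 in WT.

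Rab24 is an atypical GTPase linked to autophagy and the endosome. Its signals were 389.3 in KO Ly6Clow and 934.4 in KO Ly6Chigh, and 363.2 in WT Ly6Clow and 941.2 in WT Ly6Chigh. The subsets did not overlap, and the gene fell in Ly6Clow by 1.26 on the log2 scale in KO and by 1.37 in WT, with a 2nd probe set at -1.2 and -1.34. Rab36 is a Golgi GTPase linked to the positioning of lysosomes. It was dim, at 43.6 in KO Ly6Clow and 116.6 in KO Ly6Chigh, and at 38.8 in WT Ly6Clow and 124.8 in WT Ly6Chigh. Its log2 ratios were -1.42 in KO and -1.69 in WT, and its 2nd Present probe set gave -1.25 and -0.87.

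Rab19, one of the less described members, was the single Rab gene called higher in Ly6Clow. Its only probe set read 554.9 in KO Ly6Clow and 170.9 in KO Ly6Chigh, and 628.0 in WT Ly6Clow and 253.8 in WT Ly6Chigh. Both Ly6Clow signals were above both Ly6Chigh signals, at 3.25-fold in KO and 2.47-fold in WT.

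**Figure D1:**
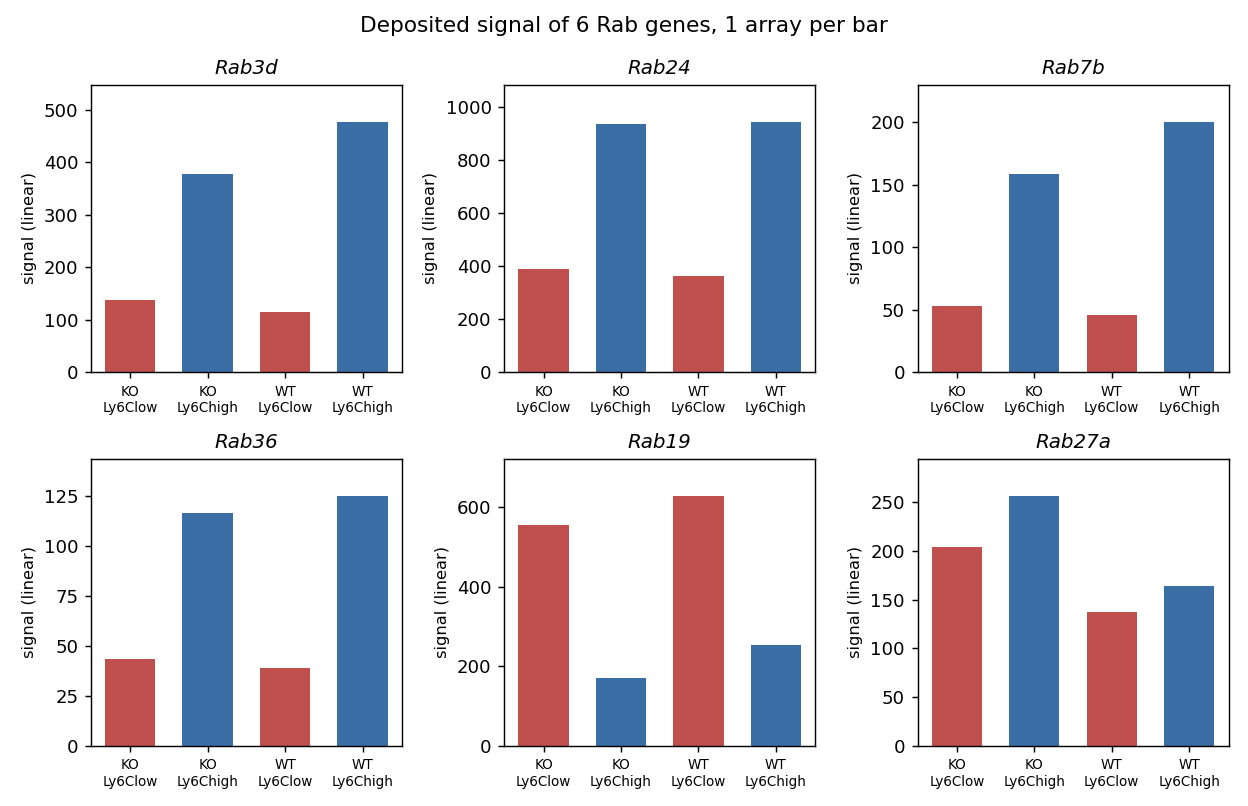
Deposited linear signal (vertical axis) of the 5 Rab genes called between subsets and of Rab27a, 1 bar per array, Ly6Clow in red and Ly6Chigh in blue; each panel has its own scale and there are no error bars because each group is 1 array. Rab3d, Rab24, Rab7b and Rab36 are lower on both red bars, Rab19 is higher on both, and Rab27a is higher on the KO bars (203.4 and 256.0) than on the WT bars (136.7 and 163.6).

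The 250 bases before the start site are shown for the called members that RefSeq's GRCm38.p6 promoter table holds, since these carry the subset calls (Rab3d and Rab24 lower, Rab19 higher in Ly6Clow); Rab7b and Rab36 are named only. The windows were searched on both strands for GAGGAA (the core of a PU.1 site), TTGCNNAA (C/EBP), AAAGGTCA (the monomer site of NR4A receptors), CACGTG (the E-box of lysosomal genes) and GGGCGG (the GC box), with matches in capitals. PU.1 and C/EBP are factors of the myeloid lineage, and the NR4A receptor Nr4a1 is known to be needed for Ly6Clow monocytes. Rab3d lies on the minus strand with its window at chr9:21918184-21918433, Rab24 on the minus strand at chr13:55321981-55322230 and Rab19 on the plus strand at chr6:39381103-39381352.
Rab3d: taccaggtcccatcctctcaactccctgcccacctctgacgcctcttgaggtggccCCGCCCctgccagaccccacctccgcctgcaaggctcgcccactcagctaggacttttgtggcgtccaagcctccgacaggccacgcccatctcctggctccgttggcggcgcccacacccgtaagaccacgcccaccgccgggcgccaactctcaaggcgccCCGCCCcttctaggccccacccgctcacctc
Rab24: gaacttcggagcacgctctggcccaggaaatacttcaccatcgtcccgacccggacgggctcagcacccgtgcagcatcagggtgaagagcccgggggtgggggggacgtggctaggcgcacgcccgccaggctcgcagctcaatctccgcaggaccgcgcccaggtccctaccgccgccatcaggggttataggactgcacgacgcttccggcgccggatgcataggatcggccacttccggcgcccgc
Rab19: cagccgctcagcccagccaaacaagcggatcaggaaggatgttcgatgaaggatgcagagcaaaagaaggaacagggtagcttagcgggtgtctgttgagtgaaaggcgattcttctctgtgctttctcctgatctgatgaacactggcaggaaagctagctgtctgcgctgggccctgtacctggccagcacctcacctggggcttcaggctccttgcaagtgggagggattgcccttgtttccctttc
Only Rab3d held a match, to the GC box at 2 positions whose first bases lie 194 and 31 bases before the start. No match means only that these letters are not in these windows. Over all 32851 windows of this length GAGGAA was found in 23.3%, TTGCNNAA in 9.56%, AAAGGTCA in 1.34%, CACGTG in 6.02% and GGGCGG in 32.7%. Over the 60 windows of the 48 Rab genes in the table the shares were 13.3%, 6.67%, 0%, 8.33% and 66.7% in the same order. The windows of Rab3d and Rab24 were 69.2% and 68.8% G or C, and that of Rab19 55.2%.

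Genes that mark other blood cells also differed between the subsets. The summed signal of a neutrophil list (10 genes on the array) was 1588.5 in KO Ly6Clow, 3806.0 in KO Ly6Chigh, 1980.2 in WT Ly6Clow and 5200.8 in WT Ly6Chigh, with 4 to 6 genes Present per array and Camp, Ltf, Ngp and Cxcr2 Absent on all 4. Of these genes 2 were called lower in Ly6Clow in KO and 3 in WT, and 0 higher, while S100a9 stood at log2 -0.06 in KO and 0.02 in WT. Mmp8, which held a large part of the gap, read 18.6, 1393.8, 21.6 and 1422.3 in the same order. A conventional dendritic cell list of 7 genes summed to 175.1, 803.8, 169.3 and 762.6 in the same order, with 1 to 3 genes Present, among them Batf3, Cd209a and Flt3, while Xcr1, Ccr7 and Itgae were Absent on all 4. B cell genes summed to 483.3, 220.4, 822.7 and 334.0 (7 genes, 2 to 4 Present) and platelet genes to 986.1, 515.4, 632.1 and 443.2 (8 genes, 5 to 7 Present). Their part in the Rab results was not tested. The 8 monocyte markers on the array were Present in all 4 pools, all 7 Ly6Chigh markers were called lower and 8 of 11 Ly6Clow markers higher in Ly6Clow, in each genotype.

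The median log2 ratio over the measured Rab genes was -0.19 in KO (-0.01 over all genes), with 14 above 0 and 31 below, and -0.14 in WT (0.01 over all genes), with 17 above and 29 below. The median size of the ratio was 0.343 for Rab genes and 0.364 for all genes in KO, and 0.347 and 0.386 in WT. The subset comparisons of KO and WT share no array. Of the 44 Rab genes measured in both, 38 (86.4%) had the same sign, against 79.1% of 9846 genes, and Pearson's r across these 44 genes was 0.884 (Spearman's rho 0.801), against 0.837 across all genes. Genes of 1 array share its scaling and hybridization, so these correlations describe the arrays and carry no p-value.

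**Figure D2:**
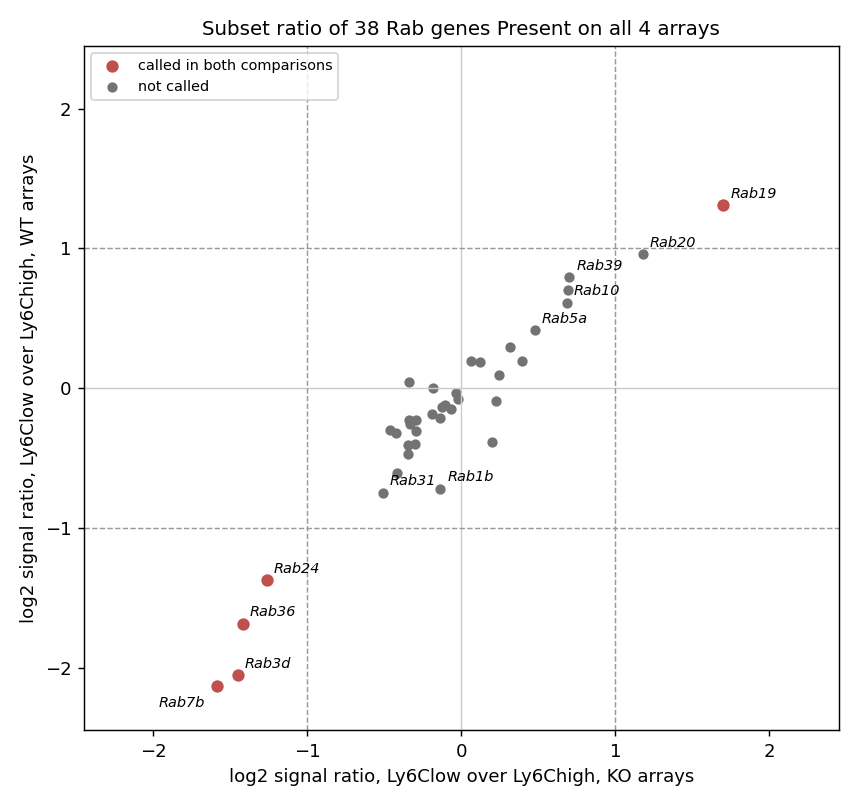
Log2 signal ratio of Ly6Clow over Ly6Chigh on the KO arrays (horizontal axis) and on the WT arrays (vertical axis), 1 point per Rab gene Present on all 4 arrays, with dashed lines at -1 and 1. The 5 called genes in red lie outside the dashed lines on both axes, Rab20 passes the line on the KO axis alone (1.18, against 0.96 in WT), and 35 of the 38 genes have the same sign in both genotypes.

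An additive limma model over the 4 arrays, with subset and genotype as its terms and 1 residual degree of freedom, gave the only test of the subset difference, since the genotypes then stand in as the 2 arrays of each subset. The model counts a subset difference that depends on genotype, or the reverse, as spread, and it cannot measure the spread between mice. At an adjusted p below 0.05 (Benjamini-Hochberg over 11099 genes Present on at least 1 array) it called 5 of 47 Rab genes, against 7.08% of all genes. These were Rab6b (log2 difference 1.85 with an SE of 0.135, limma adjusted p = 0.0352), Rab36 (-1.55, SE 0.140, 0.0412), Rab24 (-1.32, SE 0.121, 0.0415), Rab7b (-1.86, SE 0.197, 0.0467) and Rab19 (1.5, SE 0.164, 0.0479). Rab3d missed the threshold at -1.75 (SE 0.211, limma adjusted p = 0.0525). The adjusted values lay close to 0.05. Over the other settings of the fit 0 to 24 Rab genes were called, against 0% to 41.4% of all genes. Rab3d was called under 3 of these settings.

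Rab6b is the paralog of the Golgi GTPase Rab6a that is best known from neurons. Its signal was 45.9 in KO Ly6Clow and 50.6 in WT Ly6Clow, and it was Absent at 11.7 in KO Ly6Chigh and 15.2 in WT Ly6Chigh. Against the 95th percentile of Absent signals on the dim array, Rab6b was at least 1.59-fold higher in Ly6Clow in KO and at least 2.06-fold in WT, and signals under 100 kept it out of the ratio calls. The limma difference rests on those Absent signals. A 2nd probe set, at most 16.1 on any array, had ratios of -0.14 in KO and -0.08 in WT.

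In the ER to Golgi and Golgi group, which carries newly made cargo, 11 of 13 members were measured in KO and 12 in WT. Rab36 was its only call. With 8.78% of all measured genes called in KO and 8.65% in WT, counts of 0 or 1 do not tell such small role groups apart. Rab1a, which acts between ER and Golgi, read 2872.9 in KO Ly6Clow and 3847.4 in KO Ly6Chigh, and 3275.0 in WT Ly6Clow and 4083.4 in WT Ly6Chigh (log2 -0.42 and -0.32). Rab6a stood at -0.35 in KO and -0.47 in WT, with its other probe sets at 0.04 and -0.01 in KO and at -0.18 and -0.12 in WT. Rab18, known for lipid droplets, was at -0.18 and 0.00, with another Present probe set at -0.69 and -0.85. Rab2b, a Golgi GTPase chosen for mention after its values were seen, read 139.9 in KO Ly6Clow and 86.5 in KO Ly6Chigh, and 149.7 in WT Ly6Clow and 91.9 in WT Ly6Chigh (0.69 and 0.70). Other probe sets of Rab2b disagreed in sign, with ratios between -0.75 and 0.85 in KO and between -0.13 and 1.14 in WT. The ratios below 0 came from dim sets. That of -0.75 had 9.7 in KO Ly6Clow and 16.3 in KO Ly6Chigh, and that of -0.13 had 35.0 in WT Ly6Clow and 38.3 in WT Ly6Chigh. Rab2a stood at 0.23 in KO and -0.09 in WT, and one of its dim probe sets (17.2 in KO Ly6Clow and 38.3 in KO Ly6Chigh) at -1.15 in KO.

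Among the 9 GTPases of the early endosome and of phagosome entry, 8 were Present on all arrays and Rab24 was the single call. Rab5a, the GTPase that organises early endosome fusion, read 2122.6 in KO Ly6Clow and 1525.6 in KO Ly6Chigh, and 2223.4 in WT Ly6Clow and 1667.0 in WT Ly6Chigh. That put both Ly6Clow arrays above both Ly6Chigh arrays by log2 ratios of 0.48 and 0.42. Its paralog Rab5c was at -0.02 and -0.08, and Rab21, an endosomal GTPase that binds integrins, at -0.35 and -0.40. Rab31, which acts between the trans-Golgi network and endosomes, read 1070.1 in KO Ly6Clow and 1524.6 in KO Ly6Chigh, and 1037.4 in WT Ly6Clow and 1741.9 in WT Ly6Chigh (-0.51 and -0.75). A 2nd, dim probe set of Rab31 stood at -1.09 and -1.33. Rab20, a GTPase of maturing phagosomes in macrophages and chosen for mention after its values were seen, read 94.5 in KO Ly6Clow and 41.8 in KO Ly6Chigh, and 83.7 in WT Ly6Clow and 43.1 in WT Ly6Chigh. Its ratio of 1.18 in KO passed the fold but not the signal minimum, and that in WT was 0.96 (limma adjusted p = 0.0542 over both genotypes).

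None of the 10 measured members (of 13) that act in recycling and in delivery to the plasma membrane was called. Beside the 8.78% of all genes called in KO and 8.65% in WT, 0 of 10 is near the background. Rab11a, the main GTPase of the recycling endosome, stood at -0.11 in KO and -0.12 in WT. Another probe set of Rab11a, Present on all arrays, stood at -0.67 in KO and -0.90 in WT. Rab8b was at -0.04 and -0.03, and Rab14 at 0.06 and 0.19. The probe set used for Rab14 carries a suffix that marks possible matches to other transcripts. Another, dim probe set of Rab14 stood at -0.86 in WT (34.8 in Ly6Clow and 63.1 in Ly6Chigh), and the remaining ones between -0.44 and 0.09. Rab8a was at -0.13 in both genotypes, with a dim probe set at 1.11 in WT. Rab10 is known in macrophages for bringing Toll-like receptor 4 to the cell surface. On the probe sets used, Rab10 differed most among the members of the group Present on all arrays. It read 2044.3 in KO Ly6Clow and 1273.7 in KO Ly6Chigh, and 2167.6 in WT Ly6Clow and 1419.3 in WT Ly6Chigh (0.68 and 0.61), and its other probe sets stood at 0.71 and 0.92 in KO and at 0.31 and 0.79 in WT.

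The group of late endosomes, lysosomes and lysosome-related organelles had 8 of 10 members measured and Rab7b as its call. Rab7, the main GTPase of late endosomes, was at -0.34 in KO and -0.23 in WT, so that Rab7b lay 1.25 below its paralog in KO and 1.90 below it in WT. This was the only one of 9 same-number pairs, both Present on all arrays, whose ratios differed by 1 or more in the same direction in both genotypes. The ratio of Rab3d minus that of Rab3a, -0.99 in KO and -1.75 in WT, fell just short in KO. Rab7b and Rab3d were already called genes, and how often other pairs of genes differ by 1 or more was not tested. Rab9, which returns cargo from late endosomes to the Golgi, read 526.9 in KO Ly6Clow and 702.5 in KO Ly6Chigh, and 554.0 in WT Ly6Clow and 843.4 in WT Ly6Chigh (-0.41 and -0.61). Rab32, a GTPase of lysosome-related organelles, was at -0.30 and -0.40, and Rab29, which acts on lysosomes and the Golgi, at 0.40 and 0.20. Rab38, the melanosome paralog of Rab32, was Present at 57.3 in KO Ly6Chigh and 48.4 in WT Ly6Chigh and lay near the Absent range in Ly6Clow (28.7 in KO and 24.2 in WT), at least 1.92-fold lower in KO Ly6Clow and at least 1.74-fold lower in WT Ly6Clow, on a probe set whose suffix marks possible matches to other transcripts, and its other probe set was likewise Present in Ly6Chigh alone. Rab39, linked to phagosome maturation and, like Rab38, chosen after its values were seen, read 153.7 in KO Ly6Clow and 94.7 in KO Ly6Chigh, and 141.7 in WT Ly6Clow and 81.7 in WT Ly6Chigh (0.70 and 0.79).

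For regulated secretion 5 of 9 members were measured, with Rab3d as the only call. Rab3a, the paralog of Rab3d best known from synaptic vesicles, stood at -0.47 in KO and -0.30 in WT, on a probe set whose suffix marks possible matches to other transcripts, while its other probe set was Absent on all 4 arrays. Rab27a, which docks secretory lysosomes and granules, was at -0.33 and -0.26. Rab44, a large Rab of granule-bearing cells chosen after its values were seen, was Absent at 15.2 in KO Ly6Clow and read 75.3 in KO Ly6Chigh, at least 2.52-fold lower in Ly6Clow, and it read 26.4 in WT Ly6Clow and 74.3 in WT Ly6Chigh (-1.49). In the group of other or less described members, Rab28 stood at 0.12 and 0.18 and Rab40c at 0.25 and 0.09, beside the call for Rab19.

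**Figure D3:**
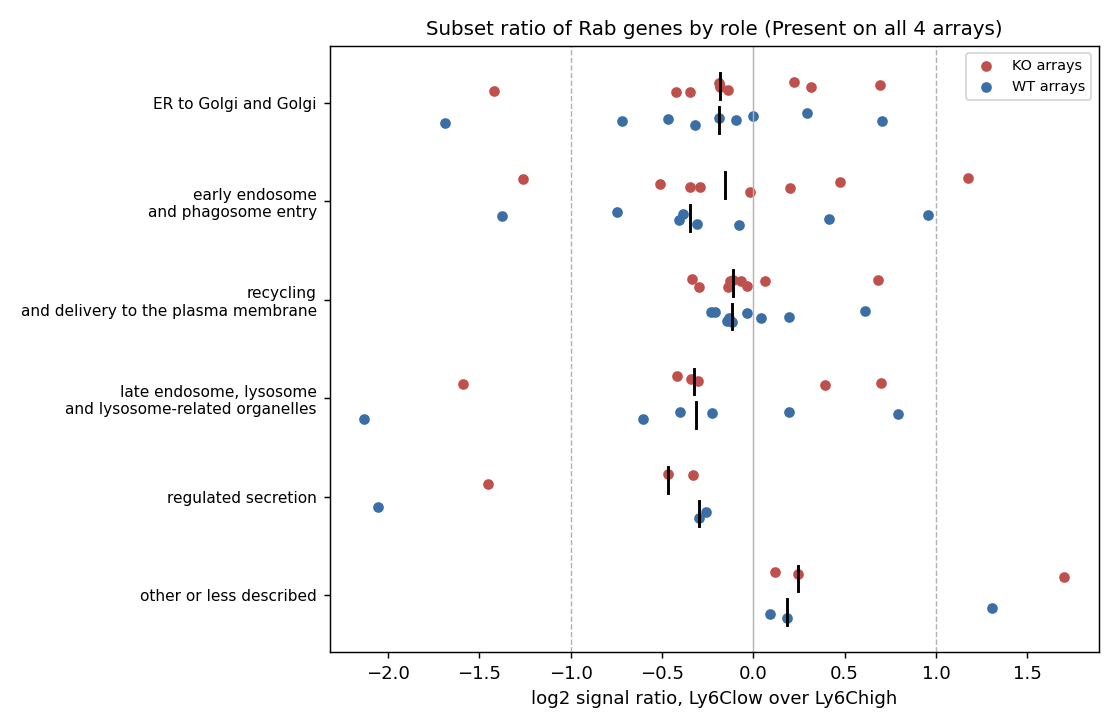
Log2 signal ratio of Ly6Clow over Ly6Chigh (horizontal axis) of the Rab genes Present on all 4 arrays, by role (vertical axis), 1 point per gene, KO arrays in red above WT arrays in blue, black bars at the median; vertical spread within a row is for legibility. The recycling group spans -0.34 to 0.68 in KO and -0.23 to 0.61 in WT and holds 0 called genes. Each other group holds 1 called gene beyond a dashed line at -1 or 1. Of all measured genes 8.78% were called in KO and 8.65% in WT, so these counts do not tell such small groups apart.

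**Figure D4:**
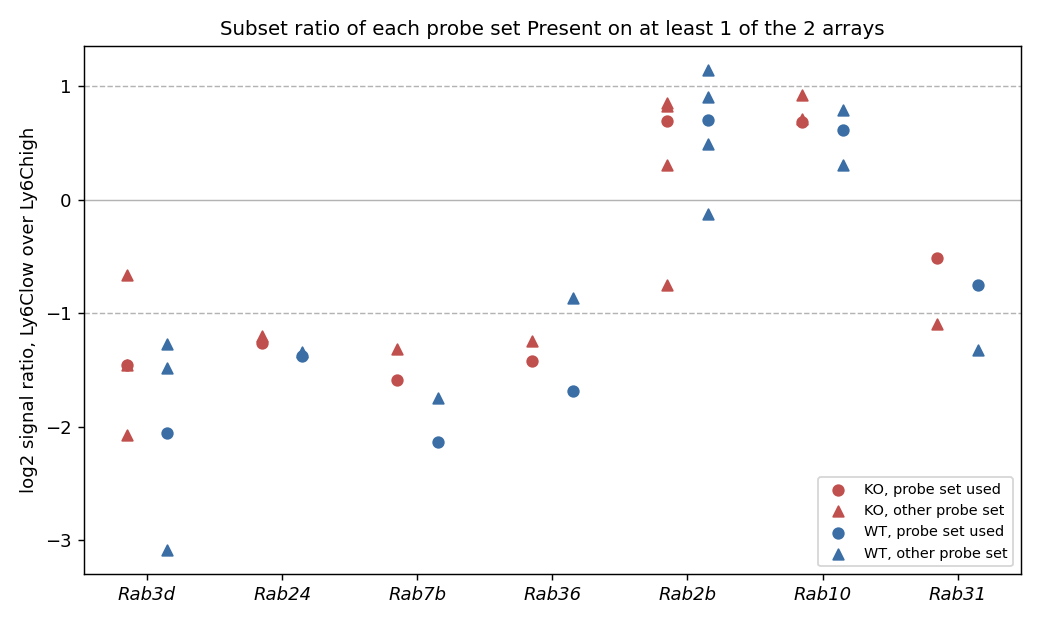
Log2 signal ratio of Ly6Clow over Ly6Chigh (vertical axis) for every probe set of 7 Rab genes that was Present on at least 1 of the 2 arrays compared, KO in red and WT in blue, circles for the probe set used and triangles for the others. All probe sets of Rab3d, Rab24, Rab7b, Rab36 and Rab31 lie below 0 and those of Rab10 above 0, whereas those of Rab2b fall on both sides.

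No Rab gene was called between KO and WT in either subset. In Ly6Chigh monocytes 0 of 45 measured Rab genes passed the rule, against 28 of 10402 genes (0.269%), and in Ly6Clow monocytes 0 of 43, against 20 of 10191 (0.196%). At these shares of all genes a count of 0 among so few members is near the background. The median log2 ratio of KO over WT was -0.09 for Rab genes in Ly6Chigh (-0.01 for all genes), with 13 above 0 and 32 below, and -0.02 in Ly6Clow (-0.03 for all genes), with 17 above and 26 below. The median size of the KO ratio was 0.128 for Rab genes in Ly6Chigh, against 0.199 for all genes, and 0.117 in Ly6Clow, against 0.148.

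Rab27a had the largest upward KO ratio in both subsets among members Present on both arrays at a signal of at least 100. It read 256.0 in KO Ly6Chigh and 163.6 in WT Ly6Chigh, and 203.4 in KO Ly6Clow and 136.7 in WT Ly6Clow. Both KO arrays were above both WT arrays, by 0.65 on the log2 scale in Ly6Chigh and 0.57 in Ly6Clow, which is under the fold asked for. The 3 dimmer probe sets of the gene, at most 16.9 on any array and Present on 0 to 2 arrays, stood at 0.53 to 0.96 in Ly6Chigh and at -1.12 to -0.04 in Ly6Clow. In the limma model the genotype difference of Rab27a was 0.61 (SE 0.118, unadjusted p = 0.0155, limma adjusted p = 0.742), the single Rab gene of 47 with an unadjusted p under 0.05. The model called 0 of 11099 genes for genotype (0%), with 700 at an unadjusted p under 0.05. With an offset of 32 added to the signals, or with an intensity trend in the empirical Bayes step, the limma adjusted p of Rab27a was 0.0449 and 0.0059, whereas it was 0.724 with quantile normalization, 0.873 when its probe sets were averaged and 0.232 over genes Present on all 4 arrays. Averaged over its 4 probe sets, the KO ratio of Rab27a turned to -0.23 in Ly6Clow and stood at 0.71 in Ly6Chigh.

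Under the same condition, the next upward ratios in Ly6Chigh were those of Rab12, which acts from recycling endosomes to lysosomes, at 0.36 (186.0 in KO and 144.6 in WT), and of Rab18, at 0.10. Downward, Rab19 was at -0.57 (170.9 in KO and 253.8 in WT), Rab3d at -0.33 (377.0 in KO and 475.5 in WT) and Rab7b at -0.33 (158.8 in KO and 199.9 in WT). These 3 are genes called between subsets, and none was called between genotypes. In Ly6Clow the upward ratios after Rab27a were those of Rab1b, an ER to Golgi GTPase, at 0.50 (253.6 in KO and 179.5 in WT) and of Rab3d at 0.26 (137.7 in KO and 114.6 in WT). Downward stood Rab33b, a Golgi GTPase linked to autophagy, at -0.26, Rab14 at -0.24 and Rab28 at -0.20. A dim probe set of Rab2a stood at -1.33 in Ly6Clow, against 0.08 for the one used.

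The KO ratios of the 2 subsets use separate arrays. Among 41 Rab genes measured in both, 22 (53.7%) had the same sign, against 58.9% of 9494 genes, and r across these genes was 0.211 (rho 0.148; all genes 0.146). The KO ratio in Ly6Clow minus that in Ly6Chigh was 0.60 for Rab3d, 0.54 for Rab7b and 0.39 for Rab19. This equals the difference between their subset ratios in KO and WT, and it could not be tested with 1 array in a group.

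**Figure D5:**
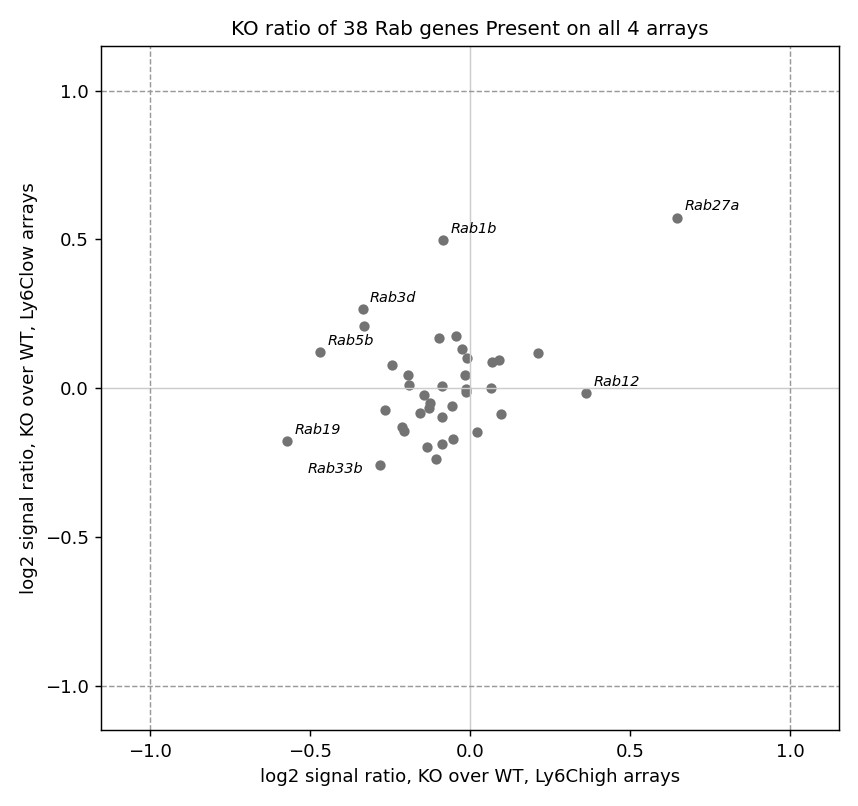
Log2 signal ratio of KO over WT in Ly6Chigh (horizontal axis) and in Ly6Clow monocytes (vertical axis), 1 point per Rab gene Present on all 4 arrays, with dashed lines at -1 and 1. No point reaches a dashed line, and Rab27a lies farthest out with both ratios above 0 (0.65 and 0.57).

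Of the genes that act on Rab proteins, 127 from lists of regulators and effectors were on the array and 108 were measured in each subset comparison. Ly6Clow monocytes had 1 of them higher and 4 lower in KO (4.63% called, against 8.78% of all genes) and 3 higher and 4 lower in WT (6.48%, against 8.65%), with median ratios of 0.01 and 0.08. Of the 30 measured GEFs 0 were called in either genotype, a small list beside those shares of all genes. Rilp, an effector that links Rab7, and also Rab36, to the dynein motor, was higher in both, at 194.6 in KO Ly6Clow and 65.6 in KO Ly6Chigh, and 165.7 in WT Ly6Clow and 64.6 in WT Ly6Chigh (log2 1.57 and 1.36). Fyco1, a Rab7 effector that binds kinesin, was higher in WT (1.05, with 0.81 in KO).

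Rab11fip5, an effector of Rab11 proteins, was lower in Ly6Clow in both genotypes, at 86.7 in KO Ly6Clow and 391.3 in KO Ly6Chigh, and 100.7 in WT Ly6Clow and 337.0 in WT Ly6Chigh (-2.17 and -1.74, and -1.95 and -1.27 for a 2nd probe set). Rabgap1l, a GAP of the TBC domain family, was lower at -1.96 in KO and -1.47 in WT, and Tbc1d24, another TBC domain protein, at -1.68 and -1.33. The calls of 4 further genes held in 1 genotype alone. Chml, a Rab escort protein that presents Rabs for prenylation, was lower in KO (-1.19, with -0.49 in WT). Tbc1d9 was lower in WT (-1.05, with -0.03 in KO), although another of its probe sets stood at -0.01 in WT. Tbc1d8b was higher in WT (1.14, with 0.54 in KO). The difference between genotypes was not tested for these.

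Between KO and WT 0 of 108 measured regulators and effectors were called in Ly6Chigh (0.269% of all genes) and 0 of 105 in Ly6Clow (0.196% of all genes), so that the counts lie near the background. The GEFs had a median KO ratio of 0.23 in Ly6Chigh, with 23 of 30 above 0, and of 0.01 in Ly6Clow, with 15 of 29 above 0. Of all genes 48.1% were above 0 in Ly6Chigh and 45.2% in Ly6Clow. In Ly6Chigh the endosomal and recycling effectors had 15 of 19 above 0 and the GAPs 19 of 29. The late endosomal effectors had 12 of 19, the secretory effectors 3 of 4, and the prenylation and GDP dissociation inhibitor list 3 of 7. Over all 108 genes the median in Ly6Chigh was 0.17, against -0.09 for the Rab genes themselves and -0.01 for all genes.

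The authors' deposited table of change calls, whose calls set no such minimum fold, marked 19 of 45 Rab genes between subsets in KO (42.2%, against 38.1% of all measured genes) and 18 of 46 in WT (39.1%, against 40.2%). In the authors' deposited table the 5 genes named first carried the same direction, and Rab2b, Rab5a, Rab10, Rab20 and Rab39 were marked higher and Rab1a, Rab9, Rab27a, Rab31, Rab32 and Rab44 lower in Ly6Clow in both genotypes. For KO against WT the authors' deposited table marked Rab19 and Rab33b lower in Ly6Chigh (fold values of -1.52 and -1.23) and Rab27a higher in Ly6Clow (1.52), which were 2 of 45 (4.44%, against 15.4% of all genes) and 1 of 43 Rab genes (2.33%, against 6.2%).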

How the data were processed

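RNA pooled from several mice was hybridized to 1 array per group (4 arrays), so the arrays cannot show the spread between mice. Per the labels and the series' design text, raw data were made with Affymetrix Expression Console 1.2.1, and the submitters' processing notes name GCOS without a version. The sources used here do not name the algorithm behind these signals. For each array the deposited table holds, for 45101 probe sets, a linear signal intensity, with a trimmed mean of 150 on every array, and a detection call with its p-value. The authors' deposited one-against-one comparison columns hold a change call with its p-value and a signed fold value, here treated as a score and used as deposited.

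Probe sets were named through GEO's platform annotation: 34958 had 1 gene symbol, 932 several (not named) and 9211 none listed. Per gene the probe set with the highest mean of the 4 signals was used. Log2 ratios were taken without an offset; a call needed a log2 ratio of at least 1, Present on the brighter array and a signal of at least 100 there. limma 3.58.1 (R 4.3.3) fitted subset plus genotype on log2 signal. The code of the fit was checked on simulated data with equal noise for every gene, a setting that these data need not share. The table of promoters is RefSeq's, on GRCm38.p6. Named genes were all called members, the 3 largest KO ratios each way, up to 4 members per role group by mean signal, members not detected, members with a discordant probe set, and called regulators and effectors; others are marked as chosen after their values were seen. The members and lists were chosen with earlier results of these data known. Alternatives were quantile normalization, median centring, an offset of 32, the mean of all probe sets, no signal minimum, a 1.5-fold threshold, Present on both arrays, the authors' change calls and, for limma, an intensity trend or genes Present on all 4 arrays. The targeted microRNA was not analysed here.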

Additional observations from a re-analysis of the deposited data

How the results depend on the processing

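The 5 Rab genes called between subsets in each genotype were the same 5 under quantile normalization, median centring and a requirement of Present on both arrays. An offset of 32 left 4 in KO (Rab36 at -0.98) and 5 in WT (7.18% and 6.95% of all measured genes). The mean of all probe sets left 3 in KO (6.67% of all measured genes), as Rab7b and Rab36 (log2 -1.07 and -2.22 there) no longer reached the signal minimum. It gave 5 in WT (6.22%), with Rab8b (-1.16) and Rab31 (-1.04) in place of Rab7b (-1.86) and Rab36 (-1.53). The Rab8b value rests on a probe set Absent on all 4 arrays (2.0 in WT Ly6Clow and 9.7 in WT Ly6Chigh). In KO the same averaging put Rab8b at 0.28. Without a signal minimum 9 of 45 were called in KO and 8 of 46 in WT (15.1% and 15.7% of all measured genes). At 1.5-fold 8 and 11 were called (18.8% and 19.7% of all measured genes). By the authors' change calls there were 19 and 18 (38.1% and 40.2%). The 5 genes were among them each time. The 0 calls for KO in Ly6Chigh became 1 at 1.5-fold (Rab27a) and 2 by the authors' change calls. Of all measured genes 2.52% and 15.4% were called there. In Ly6Clow the 0 calls became 1 without a signal minimum (Rab13, Absent on 3 arrays) and 1 by the authors' change calls. Of all measured genes 3.17% and 6.2% were called there.

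limma's subset calls over all genes moved from 786 to 4317 with an offset of 32, 4590 with an intensity trend, 3352 over genes Present on all 4 arrays and 0 when all probe sets of a gene were averaged; the Rab genes among them numbered 21, 24, 14 and 0, and 3 with quantile normalization, against 5. Its genotype calls moved from 0 to 106 with the offset and 287 with the trend, each with 1 Rab gene, Rab27a. Rab27a's KO ratio in Ly6Clow was -0.23 when its probe sets were averaged, against 0.57. With 0 KO calls under the scalings tried, whether a called KO ratio turned sign between subsets could not be asked. The cause was not tested. With 1 array in a group no array could be left out. Signals under about 30, the range of Absent probe sets, limit Rab6b, Rab13, Rab38, Rab42 and Rab44. No paired analysis was possible because the labels carry no replicate numbers, other than the limma model itself, which compares the subsets within each genotype.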
